A study of Mus musculus with 4 samples.

Results

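The small leucine-rich proteoglycans (SLRPs) are secreted proteins of the extracellular matrix, and lumican is the member after which this set was named. The 10 genes described, *Lum*, *Fmod*, *Prelp*, *Omd*, *Kera*, *Dcn*, *Bgn*, *Aspn*, *Ogn* and *Podn*, were taken by symbol from 19938 genes measured in embryonic mouse lung on Affymetrix arrays. A member had to be named alone by a probe set of the array, a group of probes read together. Had several named it, the one with the highest mean over the 4 arrays would have stood for it, but each of the 10 had 1 probe set, so that this choice decided nothing. Expression was compared between 2 arrays of *Hmga2*-/- lung (KO) and 2 of *Hmga2*+/+ lung (WT), all C57BL/6 at embryonic day 18.5, to see which transcripts differ after loss of *Hmga2*, which encodes a chromatin protein. The genes were chosen by family with the KO and WT values of these arrays already known, and probe sets by mean intensity over the 4 arrays, so the tests below describe the members and are not independent evidence for the choice. The genotype is given for the whole embryo, with no tissue-specific driver named. The arrays are labelled as biological replicates, with the KO titles numbered apart and the WT titles not, but no source used here says whether each holds 1 embryo or a pool.

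SLRP proteins share a core of leucine-rich repeats that folds into a curved solenoid, and most bind fibrillar collagen through it. Many carry chains of chondroitin, dermatan or keratan sulphate, and several hold growth factors or bind cell-surface receptors. They set the diameter and spacing of collagen fibrils, and in the lung they are made mainly by mesenchymal cells. The family is divided into classes by sequence and gene structure. *Dcn*, *Bgn* and *Aspn* are class I, *Lum*, *Fmod*, *Prelp*, *Omd* and *Kera* class II, *Ogn* class III and *Podn* class V.

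Values are log2 intensities as the authors normalised them, so a log2 difference of 1 is a doubling on the array. All differences are KO minus WT, with the standard error (SE) and a p value from limma adjusted over all 19938 genes, and a gene was called at an adjusted p under 0.05. Of all genes, 0.782% were called, 0.0802% (16 genes) as higher and 0.702% (140 genes) as lower. Scaling moved that split, to 73 higher and 221 lower with array medians aligned and 80 and 270 with cyclic loess. WT replicate 1 stood apart, at r = 0.976 with both KO arrays and 0.985 with WT replicate 2 over all probe sets, where WT replicate 2 had 0.994 and 0.992 with KO replicates 1 and 2 and the KO arrays 0.997 with each other. The *Hmga2* probe set read 9.65 and 9.39 in the KO arrays and 9.35 and 9.59 in the WT arrays (difference 0.051, SE 0.16, adjusted p = 0.892). No source used here places this probe set inside or outside the deletion. It therefore checks no label, and directions hold for the arrays as labelled. In whole lung, fewer cells of a type cannot be told apart from less RNA per cell. With 2 arrays against 2, an exact permutation test cannot give a two-sided p below 0.333.

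*Lum* and *Dcn* rose in KO lung, by 4.14-fold and 2.19-fold, and they were the members of the set that passed the test. *Fmod* and *Prelp* had higher values in both KO arrays than in both WT arrays without passing. *Podn*, *Ogn* and, by a small margin, *Aspn* had lower ones. *Bgn*, *Aspn*, *Omd* and *Kera* lay within 0.11 of zero on the log2 scale. Thus 2 of 10 members were called as higher and 0 as lower, with 4 and 1 at an unadjusted p under 0.05 in limma, against 5.88% and 8.58% of all genes. The groups did not overlap for 4 members on the high side and 3 on the low side, a separation found on the high side in 17.6% and on the low side in 31.8% of all genes. The median over the 10 members was −0.02, and over all genes −0.05, so the median did not follow the large differences of a few genes.

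**Figure D1:**
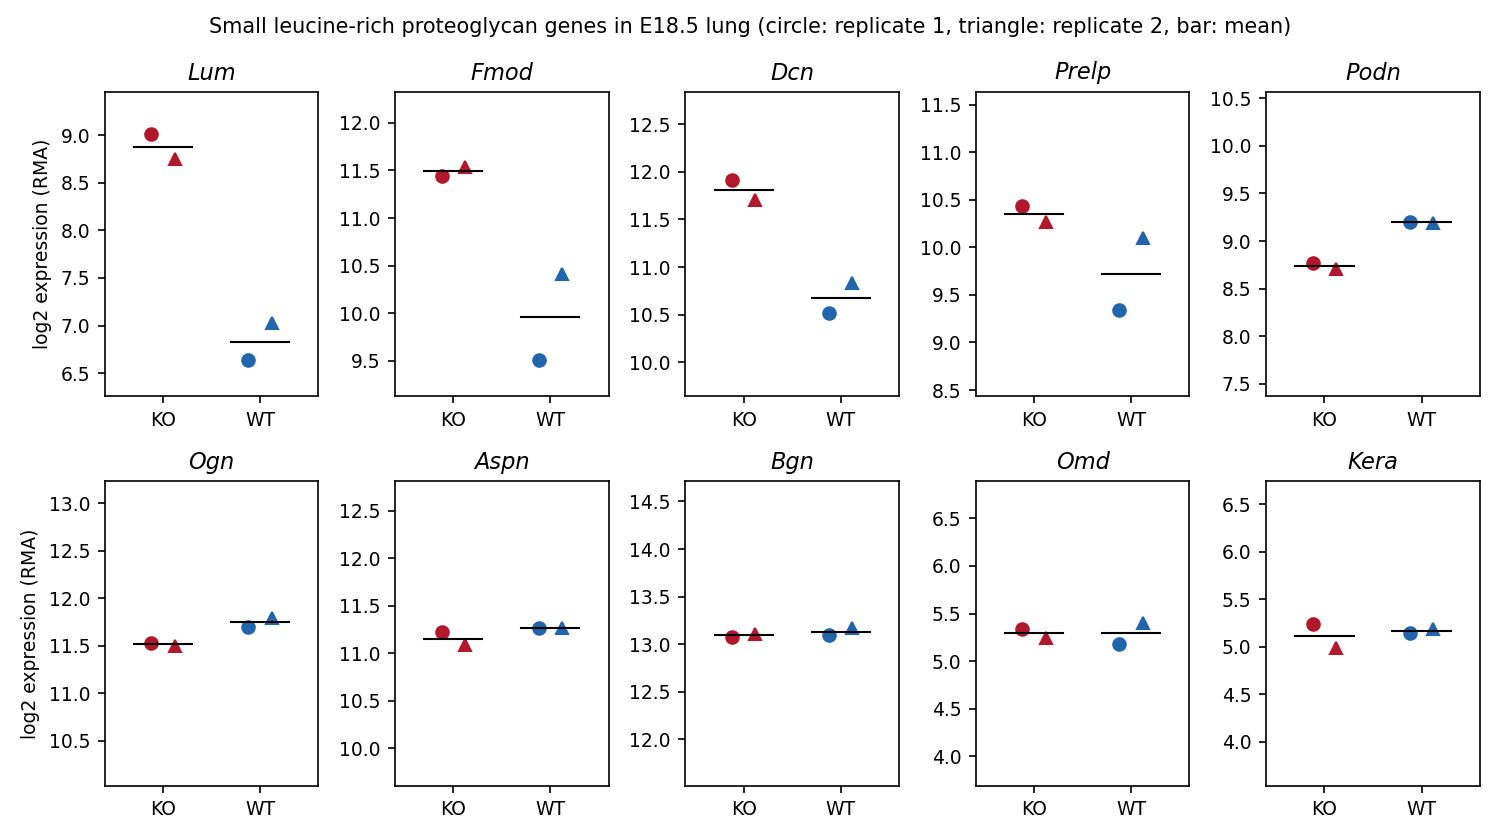
Log2 expression (vertical axis) of the 10 SLRP genes on the 2 KO arrays (left, red) and the 2 WT arrays (right, blue), with replicate 1 as a circle, replicate 2 as a triangle and the group mean as a bar, each panel spanning the same log2 range around its own mean. The KO arrays of *Lum* lie at 9.01 and 8.75 against 6.64 and 7.02 in WT, and *Bgn* spans 13.08 to 13.17 over all 4 arrays.

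The class II members ran from the largest difference of the set to differences near zero. *Lum* encodes lumican, a keratan sulphate proteoglycan that binds collagen and limits the sideways growth of fibrils, best known for keeping the cornea clear. It had 9.01 and 8.75 in the KO arrays, against 6.64 and 7.02 in the WT arrays, with means of 8.88 ± 0.18 and 6.83 ± 0.28 (SD, n = 2 each). Both KO values were high, and the lower of them lay 1.73 above the higher WT value. The difference was 2.05 (SE 0.18, 95% interval 1.62 to 2.48, adjusted p = 0.0121), the 3rd highest of all 19938 genes. Both WT values were dim, below every value of the family gene *Chadl*, which lay in the dimmest 40 percent of genes. The files carry no call of signal over background, so the WT level of *Lum*, and with it the size of the fold, is uncertain.

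*Fmod* encodes fibromodulin, which binds collagen and takes part in its cross-linking in tendon and other dense tissue. It had 11.45 and 11.54 in the KO arrays and 9.50 and 10.41 in the WT arrays. The KO arrays were close together and the WT arrays far apart, with SDs of 0.065 and 0.64, and the groups were separated by 1.03. The difference was 1.53 (SE 0.28, 95% interval 0.85 to 2.22), which is 2.89-fold and the 11th highest of all genes. Its adjusted p of 0.0821 missed the threshold. WT replicate 1 was the lowest array, and the difference was 1.99 against that array alone and 1.08 against WT replicate 2 alone.

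*Prelp* encodes a protein that links basement membranes to connective tissue and binds heparan sulphate as well as collagen. It had 10.43 and 10.27 in the KO arrays and 9.34 and 10.09 in the WT arrays. WT replicate 1 was low and WT replicate 2 lay 0.17 below the lower KO array. The difference of 0.63 (SE 0.25, 95% interval 0.033 to 1.23, adjusted p = 0.325) became 0.25 against WT replicate 2 alone and 1.01 against WT replicate 1 alone.

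*Omd* (osteomodulin), known from bone, had 5.34 and 5.24 in the KO arrays and 5.18 and 5.40 in the WT arrays, a difference of −0.0012 (95% interval −0.34 to 0.34). *Kera* (keratocan), known from the cornea, had 5.24 and 4.99 in the KO arrays and 5.14 and 5.19 in the WT arrays, a difference of −0.053 (95% interval −0.40 to 0.29). For both genes the groups overlapped. Both lay in the dimmest 40 percent of genes by mean value, and the files carry no call of signal over background, so a change of a dim transcript may not be visible at this signal.

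The class I members split. *Dcn* encodes decorin, a chondroitin or dermatan sulphate proteoglycan that coats collagen fibrils, sequesters TGF-beta and binds receptor tyrosine kinases such as EGFR and MET. It had 11.91 and 11.70 in the KO arrays, against 10.52 and 10.83 in the WT arrays, with means of 11.81 ± 0.15 and 10.67 ± 0.22 (SD, n = 2 each). The groups were separated by 0.87. The difference was 1.13 (SE 0.16, 95% interval 0.74 to 1.53), at an adjusted p = 0.0455 close to the threshold, the 84th highest of all genes.

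*Bgn* encodes biglycan, the closest relative of decorin, which is also a ligand of the receptors TLR2 and TLR4. It had 13.08 and 13.11 in the KO arrays and 13.10 and 13.17 in the WT arrays, so that the groups overlapped within a range of 0.09. Its difference of −0.039 had a 95% interval of −0.34 to 0.26. *Aspn* encodes asporin, which binds collagen and TGF-beta. It had 11.23 and 11.08 in the KO arrays and 11.26 and 11.27 in the WT arrays, a difference of −0.11 (95% interval −0.42 to 0.20, adjusted p = 0.70). Both KO values of *Aspn* lay below both WT values, with a gap of 0.037. The intervals of *Bgn* and *Aspn* thus lie below that of *Dcn*, which starts at 0.74.

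Class III and class V members had lower values in KO lung. *Ogn* encodes osteoglycin, also named mimecan. It had 11.53 and 11.50 in the KO arrays and 11.69 and 11.80 in the WT arrays, a difference of −0.23 (SE 0.13, 95% interval −0.54 to 0.075, adjusted p = 0.443). *Podn* encodes podocan, a collagen-binding SLRP. It had 8.77 and 8.70 in the KO arrays, against 9.20 and 9.19 in the WT arrays. Within each group the arrays differed by less than 0.1, and the groups were separated by 0.42. The difference of −0.46 (SE 0.13, 95% interval −0.76 to −0.16, unadjusted p = 0.00926) had an adjusted p = 0.177. It hardly depended on the WT array, at −0.47 against WT replicate 1 alone and −0.45 against WT replicate 2 alone.

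**Figure D2:**
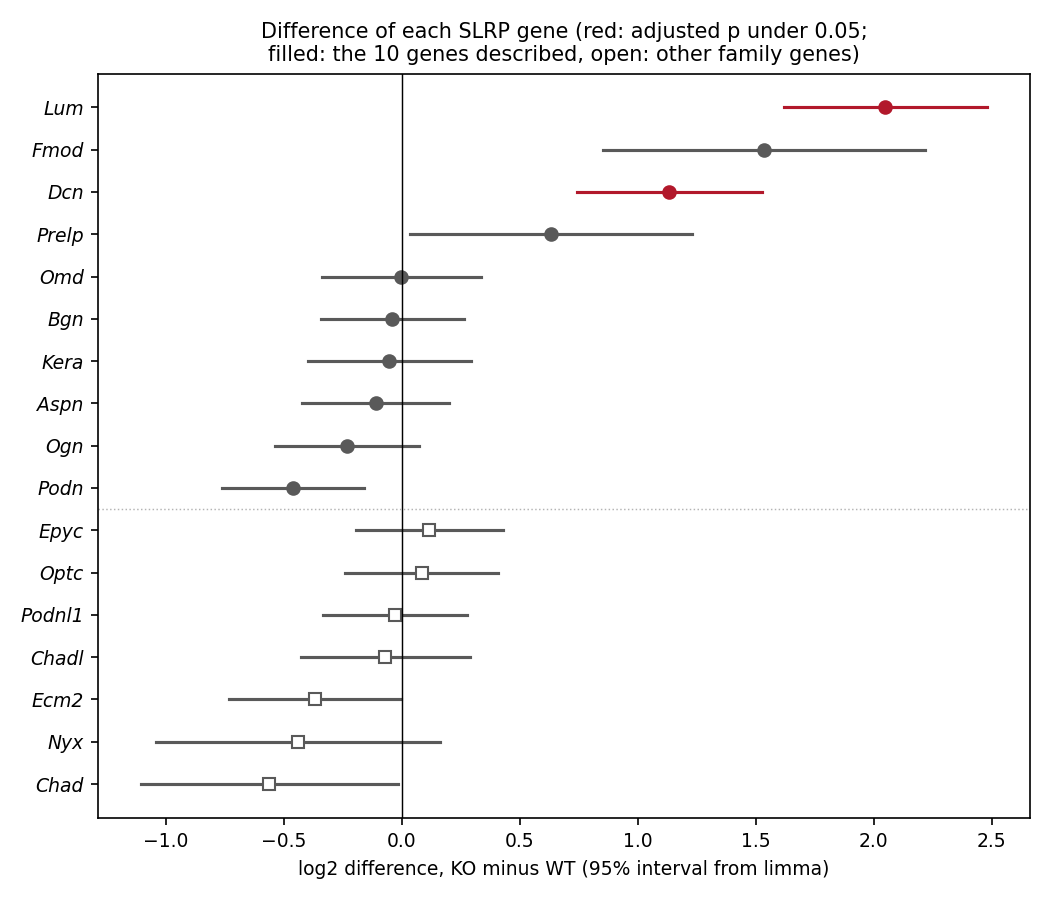
Log2 difference of KO minus WT (horizontal axis) with its 95% interval from limma for the 10 genes described (filled circles) and the 7 other measured SLRP genes (open squares), in red where the adjusted p is under 0.05. *Lum* at 2.05 and *Dcn* at 1.13 are red, and the open squares run from −0.56 to 0.12.

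Other genes of the family were given from a list of 8, of which 7 were measured and 0 passed limma's test. Unadjusted p values under 0.05 in limma marked 0 as higher and 2 as lower, against 5.88% and 8.58% of all genes. *Chad* (chondroadherin, a cartilage protein) had 8.86 and 8.54 in the KO arrays and 8.96 and 9.56 in the WT arrays (difference −0.56, SE 0.23, adjusted p = 0.334). *Ecm2* had a difference of −0.37 (SE 0.15, adjusted p = 0.341). *Nyx* (nyctalopin, known from the retina) had −0.44, or −0.27 as the mean of its 2 probe sets, and −0.051 against WT replicate 2 alone. *Epyc* had 0.12, *Optc* 0.084, *Podnl1* −0.028 and *Chadl* −0.069, and these 4 lay in the dimmest 40 percent of genes. The highest of these 7, 0.12, lay below the lower ends of the intervals of *Lum*, *Fmod* and *Dcn*.

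The 4 members with higher values in both KO arrays lie in the genome as pairs, on chromosomes 10 and 1. Most members lie beside another SLRP gene, so such a place does not set these 4 apart. In the RefSeq annotation of assembly GRCm38.p6, *Dcn* and *Lum* are adjacent protein-coding genes on chromosome 10, followed by *Kera* and *Epyc*. *Fmod* and *Prelp* are adjacent on chromosome 1, beside *Optc*. *Ecm2*, *Aspn*, *Omd* and *Ogn* follow one another on chromosome 13, *Podn* is on chromosome 4 and *Bgn* on the X chromosome. On chromosome 10 the difference was 1.13 for *Dcn* and 2.05 for *Lum* but −0.053 for *Kera* and 0.12 for *Epyc*. On chromosome 1 it was 1.53 for *Fmod* and 0.63 for *Prelp* but 0.084 for *Optc*. *Kera*, *Epyc* and *Optc* lay in the dimmest 40 percent of genes, so their values do not show whether the higher expression ends at *Lum* and *Prelp*. The 4 SLRP genes of chromosome 13 lay between −0.37 and −0.0012. Measured genes next to the SLRP genes in RefSeq order showed no call either. The order follows 1 coordinate per gene, so whether such a gene overlaps the SLRP genes was not examined. *Btg1* and *Ccer1* on chromosome 10 had −0.16 and −0.18, and *Btg2* and *Chit1* on chromosome 1 had −0.27 and −0.066. On chromosome 13, *Cenpp*, a centromere gene before *Ecm2* in this order, had 0.89 (SE 0.19, adjusted p = 0.111). *Nol8* and *Iars*, after *Ogn*, had 0.24 and 0.48.

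**Figure D3:**
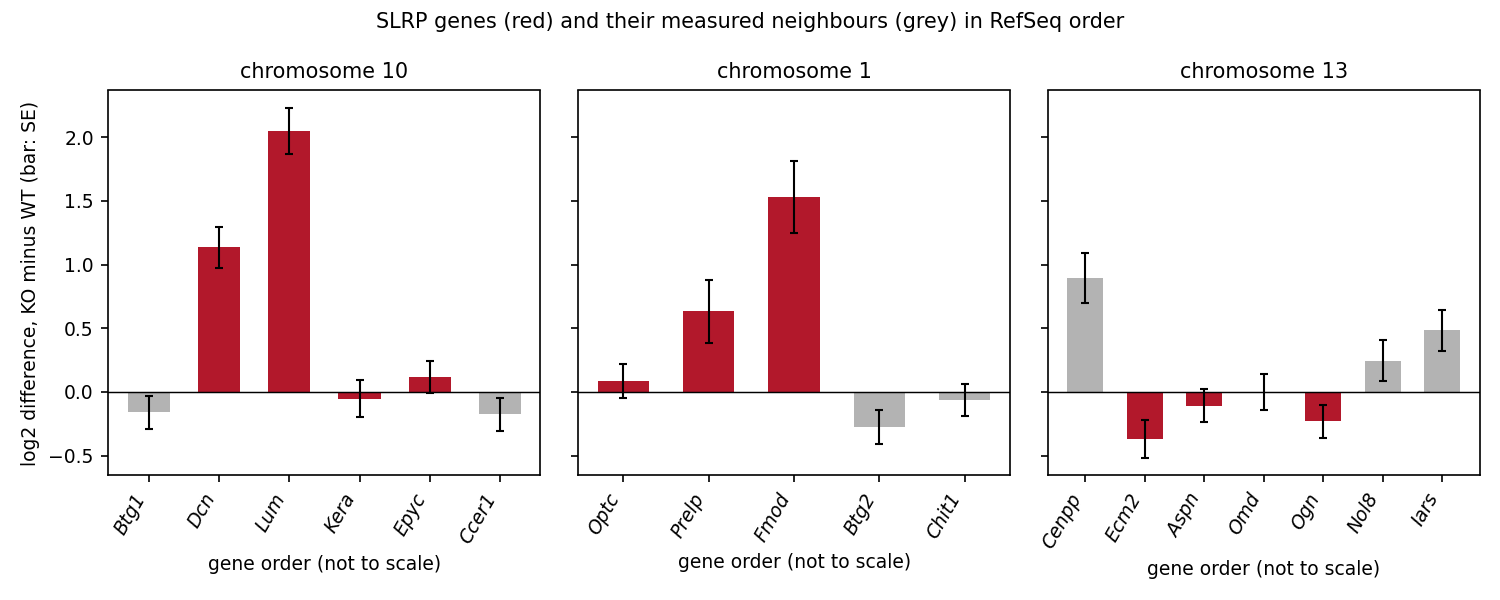
Log2 difference of KO minus WT (vertical axis, bars to the mean difference, whiskers 1 SE) for SLRP genes (red) and the measured protein-coding genes beside them (grey), in RefSeq order on chromosomes 10, 1 and 13. *Dcn* and *Lum* stand at 1.13 and 2.05, *Prelp* and *Fmod* at 0.63 and 1.53, and the SLRP genes of chromosome 13 at or below zero.

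Promoter windows are shown for the chromosome 1 genes, because *Fmod* and *Prelp* lie side by side and both had higher values in the KO arrays, though neither was called. *Dcn* and *Lum*, also side by side, had no window to show. *Optc* is shown as the SLRP gene next to *Prelp*, and its dim probe set does not show whether it changed. Each window covers 250 bases before and 50 bases after the annotated start, 5′ to 3′ on the strand of the gene, from RefSeq (GRCm38.p6): chr1:134037004-134037303 (+) for *Fmod*, chr1:133921352-133921651 (−) for *Prelp* and chr1:133907950-133908249 (−) for *Optc*. Capitals mark matches to the motifs searched.
Fmod: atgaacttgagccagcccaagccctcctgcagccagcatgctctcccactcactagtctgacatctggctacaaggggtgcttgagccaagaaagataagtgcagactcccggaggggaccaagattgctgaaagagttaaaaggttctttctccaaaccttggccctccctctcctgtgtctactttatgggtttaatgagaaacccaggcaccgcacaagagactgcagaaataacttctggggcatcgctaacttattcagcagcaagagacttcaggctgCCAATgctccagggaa
Prelp: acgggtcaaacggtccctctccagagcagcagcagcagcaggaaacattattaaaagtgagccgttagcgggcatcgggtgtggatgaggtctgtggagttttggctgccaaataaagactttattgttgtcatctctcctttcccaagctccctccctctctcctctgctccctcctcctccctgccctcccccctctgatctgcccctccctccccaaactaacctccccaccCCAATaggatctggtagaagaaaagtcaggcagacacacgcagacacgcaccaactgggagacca
Optc: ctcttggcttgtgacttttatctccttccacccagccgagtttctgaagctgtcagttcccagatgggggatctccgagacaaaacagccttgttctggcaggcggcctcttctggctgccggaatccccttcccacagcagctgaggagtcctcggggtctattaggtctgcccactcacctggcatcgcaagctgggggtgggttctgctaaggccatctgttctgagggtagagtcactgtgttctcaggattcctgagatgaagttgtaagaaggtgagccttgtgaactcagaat
The motifs were searched on both strands: the TATA box TATAAA, the GC box GGGCGG, the CCAAT box CCAAT, the AP-1 motif TGANTCA and the TCF/LEF motif CTTTGAT. The *Fmod* window held CCAAT at bases 285 to 289 and the *Prelp* window at bases 236 to 240, counted from the first base shown, and neither held another of the motifs. The *Optc* window held none of them. CCAAT is found in 37.4% of all 32851 promoter windows of this length, and among the 8 members with a window it was also in those of *Kera* and *Aspn*. The other motifs are found in 13.6% (TATAAA), 35.7% (GGGCGG), 7.81% (TGANTCA) and 3.73% (CTTTGAT) of all windows. No window was available for *Lum* and *Dcn*.

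Neighbouring genes did not differ by the same amount. On each array the value of one probe set was subtracted from the other, which removes what an array adds to both. *Lum* minus *Dcn* was −2.90 and −2.95 in the KO arrays, against −3.88 and −3.81 in the WT arrays, so *Lum* gained 0.92 on *Dcn*, and the groups were far apart beside a spread of under 0.1 in each. *Fmod* minus *Prelp* was 1.02 and 1.27 in the KO arrays and 0.17 and 0.32 in the WT arrays, a gain of 0.90. *Lum* minus *Fmod*, genes of different chromosomes, was −2.44 and −2.79 in the KO arrays and −2.87 and −3.39 in the WT arrays, a gain of 0.52 with little room between the groups. *Bgn* minus *Aspn* was 1.85 and 2.02 in the KO arrays and 1.83 and 1.90 in the WT arrays, where the groups overlapped. These gaps are given as a description and were not tested.

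The genes whose values followed *Lum* most closely were sought outside the family, by the Euclidean distance between log2 values over the 4 arrays after each gene's mean was subtracted. The nearest 5 were *Far2*, a fatty acyl-CoA reductase (distance 0.30), *Tmem54* (0.40), *Nppa*, the natriuretic peptide of atrial muscle (0.47), *Ccl11*, the chemokine eotaxin (0.57), and *Scara3* (0.58). Within the family *Fmod* was nearest (0.68), then *Dcn* (0.92) and *Prelp* (1.44). *Far2* had 9.22 and 8.98 in the KO arrays and 6.93 and 7.61 in the WT arrays, and rose by 1.83 (adjusted p = 0.0326). *Nppa* had 8.95 and 8.53 in the KO arrays and 7.03 and 6.89 in the WT arrays, and rose by 1.78 (adjusted p = 0.0172). Over 4 arrays such a likeness describes these arrays only.

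The partners of SLRPs in the matrix did not share the size of these differences. Of 20 fibril-forming and fibril-associated collagen genes, 0 were called. Unadjusted p values under 0.05 in limma marked 1 as higher and 0 as lower, against 5.88% and 8.58% of all genes. Their median was 0.048. The groups did not overlap for 8 on the high side and 5 on the low side, against 17.6% and 31.8% of all genes. *Col11a1*, a minor fibrillar chain, had 7.85 and 7.98 in the KO arrays and 7.54 and 7.53 in the WT arrays (difference 0.38, SE 0.13, adjusted p = 0.254). *Col6a3* had −0.53 and *Col6a1* −0.23, both with groups that did not overlap. The first rested on WT replicate 1, at −0.95 against that array alone and −0.11 against WT replicate 2 alone. *Col9a1* had 0.30.

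Enzymes that build the sugar chains gave no call either. Of 22 genes of chondroitin and dermatan sulphate synthesis, the chains of decorin and biglycan, 0 were called and 0 had an unadjusted p under 0.05 in limma, with a median of 0.021 and a range of −0.28 to 0.43. *Csgalnact2* had −0.28, *Dsel* 0.27 and *Chpf* 0.26. Of 12 measured genes of keratan sulphate synthesis, the chains of lumican and fibromodulin, 0 were called. Unadjusted p values under 0.05 in limma marked 0 as higher and 2 as lower, against 5.88% and 8.58% of all genes. The median was −0.11. *Chst1*, a sulphotransferase that acts on keratan sulphate, had 7.38 and 7.27 in the KO arrays and 7.88 and 7.79 in the WT arrays (difference −0.51, SE 0.13, adjusted p = 0.155). *St3gal1*, a sialyltransferase, had −0.41, and *Chst5* had 0.44.

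Of 16 genes of proteases that process or cleave SLRPs and of their enhancers, 0 were called, and the median was −0.18. Unadjusted p values under 0.05 in limma marked 1 as higher and 4 as lower, against 5.88% and 8.58% of all genes. *Pcolce2*, which enhances the trimming of procollagen, had 9.37 and 8.95 in the KO arrays and 10.04 and 10.24 in the WT arrays (difference −0.98, SE 0.18, adjusted p = 0.0798). It passed with the replicate block (0.0238), aligned medians (0.0393), cyclic loess (0.0313) and without the dimmest genes (0.0403). The collagenase gene *Mmp8* had −1.04 (adjusted p = 0.0957) and the tolloid-like protease gene *Tll1* −0.55. *Adamts1* had −0.42. Of 26 measured receptors and ligands that SLRPs bind, 0 were called, and the median of −0.27 lay below the −0.05 of all genes. Unadjusted p values under 0.05 in limma marked 2 as higher and 8 as lower, against 5.88% and 8.58% of all genes. *Tlr4*, a receptor of biglycan and decorin, had 7.06 and 6.78 in the KO arrays and 7.59 and 7.62 in the WT arrays (difference −0.68, SE 0.15, adjusted p = 0.110). *Met*, which decorin binds, had 9.71 and 9.58 in the KO arrays and 10.47 and 10.19 in the WT arrays (difference −0.69, adjusted p = 0.112). *P2rx4* had −0.75 and *Fas* −0.77.

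Among 24 other proteoglycan genes, *Spock2*, a testican with heparan sulphate chains, fell, and none rose. It had 9.25 and 8.95 in the KO arrays, against 10.76 and 10.86 in the WT arrays (difference −1.71, SE 0.15, adjusted p = 0.0121). At an unadjusted p under 0.05 in limma, 3 were higher and 3 lower, against 5.88% and 8.58% of all genes. The median was −0.064. *Vcan* (versican, a hyaluronan-binding proteoglycan of loose matrix) had 0.79, and the glypican genes *Gpc6* and *Gpc1* had 0.70 each, all with adjusted p values from 0.0824 to 0.0937.

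Marker lists of the cell types in lung were read beside the SLRP genes. Fibroblast markers were present and, as a list, did not follow *Lum*. Their mean log2 value was 10.80 and 10.69 in the KO arrays and 10.87 and 10.92 in the WT arrays. Of 19 genes 0 rose and 1 fell. Unadjusted p values under 0.05 in limma marked 1 as higher and 4 as lower, against 5.88% and 8.58% of all genes. *Clec3b* fell by 1.09 (adjusted p = 0.0294). *Dpt*, a matrix protein that binds decorin, had −0.90 (adjusted p = 0.0502). With all arrays and the threshold of 0.05, *Dpt* passed in 5 alternatives, at adjusted p values from 0.0236 to 0.0422. *Fn1* had −0.68 and *Col13a1* −0.58. *Pdgfra* had 11.35 and 11.40 in the KO arrays and 11.45 and 11.28 in the WT arrays. The lists of smooth muscle cells and pericytes, cartilage, and tendon and bone had 0 called genes each, of 14, 16 and 8 measured, with medians of 0.064, 0.042 and 0.10. *Rgs5*, a pericyte gene, had 0.72 and *Cnn1* 0.34, while *Cspg4* had −0.39 and *Mylk* −0.29. Among cartilage genes unadjusted p values under 0.05 marked *Matn3* (0.49) as higher and *Chad* (−0.56) as lower, and *Cnmd* had 0.36. *Ibsp*, a bone sialoprotein, had 8.79 and 8.23 in the KO arrays and 6.22 and 7.50 in the WT arrays (difference 1.65, SE 0.41, adjusted p = 0.15). The tendon genes *Mkx*, *Scx* and *Thbs4* had 0.37, 0.36 and 0.26. The other 4 measured genes of the tendon and bone list had lower means, down to −0.074, with groups that overlapped. Of 11 mesothelial genes, 5 had higher and 6 lower means, and the median was −0.049. The groups did not overlap for 0 on the high side and 2 on the low side, against 17.6% and 31.8% of all genes. *Msln* fell by 1.42, and *Upk1b* had −0.58, *Muc16* −0.27 and *Bnc1* 0.14.

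**Figure D4:**
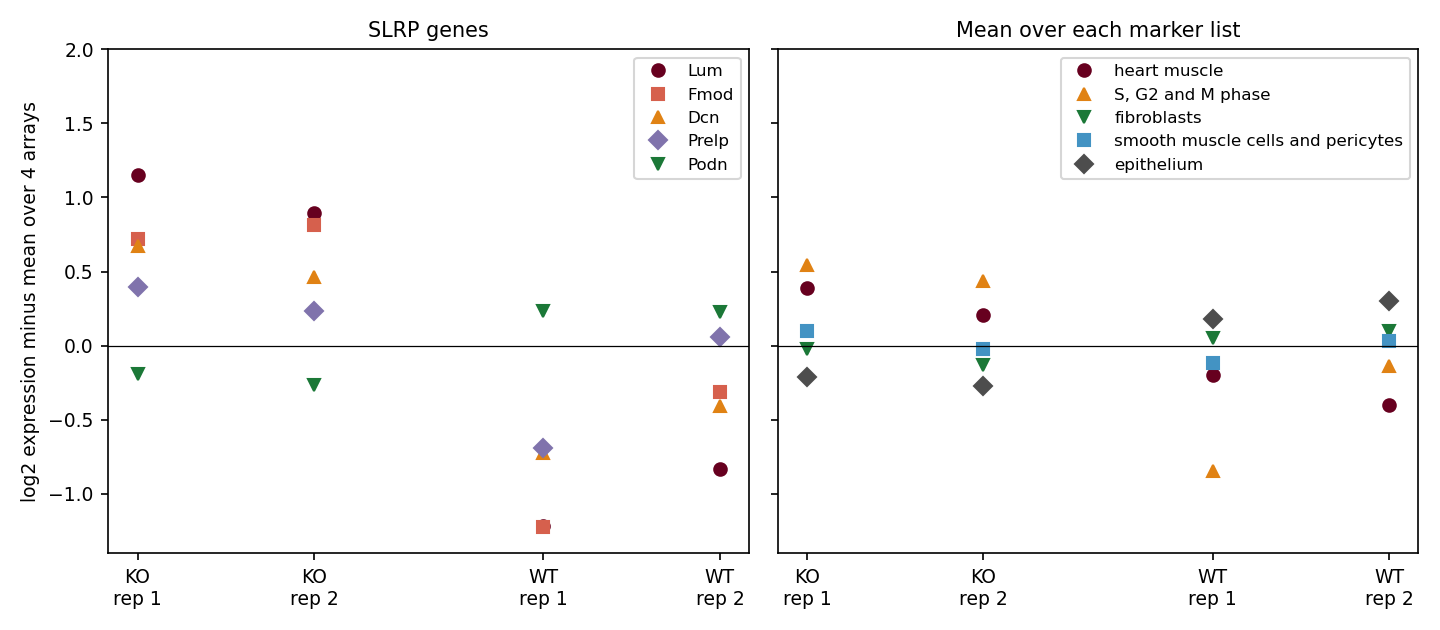
Log2 expression minus the mean over the 4 arrays (vertical axis), by array, for 5 SLRP genes (left) and for the mean of 5 marker lists (right). *Lum*, *Fmod*, *Dcn* and *Prelp* lie lowest in WT replicate 1, where the S, G2 and M phase list also lies lowest, while heart muscle markers lie lowest in WT replicate 2.

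Heart muscle and cell cycle lists, like *Lum*, had higher values in both KO arrays. Heart muscle genes had a mean of 9.86 and 9.68 in the KO arrays and 9.27 and 9.07 in the WT arrays. Their median difference was 0.61, and 8 of 10 had both KO arrays above both WT arrays, against 17.6% of all genes. The list did not go one way, as *Myh7* had −0.41 with both KO arrays below both WT arrays. Of the heart muscle genes *Nppa* rose, and *Myl7* had 0.87 (adjusted p = 0.0515), *Actc1* 0.72 and *Tnnt2* 0.64. Genes of S, G2 and M phase had a mean of 11.17 and 11.06 in the KO arrays and 9.78 and 10.49 in the WT arrays, and 21 of 21 measured genes had both KO arrays above both WT arrays, against 17.6% of all genes. Their median difference was 0.99, or 0.61 without WT replicate 1 and 1.28 without WT replicate 2. *Hells* rose by 1.22, and *Cenpf* had 0.89, *Pola1* 0.88 and *Mki67* 0.71. WT replicate 1 was the lowest array for *Lum*, *Dcn*, *Fmod*, *Prelp* and this list, but not for the heart muscle list. The part of heart muscle and of dividing cells in the SLRP differences was not tested.

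Markers of epithelium, endothelium and leukocytes had lower means in KO lung. Epithelial markers had a mean of 11.31 and 11.24 in the KO arrays and 11.70 and 11.82 in the WT arrays, but the list did not go one way. Of its 18 genes 0 rose and 3 fell, and the median was −0.14. Unadjusted p values under 0.05 in limma marked 2 as higher and 8 as lower, against 5.88% and 8.58% of all genes. *Sftpd* (−3.07), *Scgb1a1* (−2.69) and *Sftpa1* (−1.10), secretory products, fell, and *Ager* had −0.85. Secretory products did not all fall, as *Sftpc* had −0.096 (adjusted p = 0.728). The general epithelial genes *Epcam* and *Esrp1*, chosen after their values were seen, had 0.69 and 0.66 with both KO arrays above both WT arrays, and *Cdh1* had 0.017. Of 12 endothelial genes *Car4* fell by 3.0, with *Cldn5* at −0.72, *Vwf* at −0.51 and *Kdr* at −0.39, and of 11 leukocyte genes *Lyz2* fell by 1.76, with *S100a8* at −0.87, *Ptprc* at −0.91 and *Cd79a* at −0.43. Their part in the SLRP differences was not tested.

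*Lum* differed by 1.86 without WT replicate 1 and by 2.24 without WT replicate 2, and *Dcn* by 0.98 and 1.29. A lone WT array carries no spread of its own, so a call there is no further support. Omission of the dimmest 40 percent drops *Chadl*, and both WT values of *Lum* lay below every value of *Chadl*. *Lum* stays in that setting through its KO values, so its call there is no further support either. The calls on *Lum* and *Dcn* held in every setting with all arrays at the threshold of 0.05 against zero. They ended when a KO array was left out: *Lum* then had 1.92 without KO replicate 1 (adjusted p = 0.426) and 2.18 without KO replicate 2 (adjusted p = 0.386), and *Dcn* 1.03 (0.669) and 1.24 (0.861). Over the whole array limma then made 1 and 0 calls, while 1057 and 968 genes had unadjusted p values under 0.05. Tested against a 1.2-fold change rather than zero, *Lum* remained called and *Dcn* was not. *Fmod* passed without WT replicate 1 or WT replicate 2, where the lone WT array carries no spread of its own, with the replicate number as a block (adjusted p = 0.00271), with array medians aligned (0.0495) and without the dimmest 40 percent of genes (0.0324).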

How the data were processed

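Total RNA of *Hmga2*-/- (2 arrays) and *Hmga2*+/+ (2 arrays) lung at embryonic day 18.5 was hybridised to Affymetrix arrays, 1 array per sample. The authors deposited log2 values of 30177 probe sets, obtained by RMA. The submitters' processing notes list Affymetrix Expression Console as the tool. RMA corrects background, quantile-normalises arrays and summarises probes by median polish. No source used here gives versions or the annotation release. The arrays did not share 1 distribution: over genes the median was 8.34 in KO replicate 1 and WT replicate 2 and 8.19 in KO replicate 2 and WT replicate 1, and sorted values differed by up to 0.362. Precision is limited by the number of arrays.

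The platform's annotation gave 1 gene symbol for 21789 probe sets, several for 1621 and none for 6767. The brightest probe set stood for each of 19938 genes. Groups came from the sample titles. Genes were compared with limma 3.58.1 in R 4.3.3 (lmFit, eBayes, residual degrees of freedom 2, prior 4.42), with Benjamini-Hochberg adjustment over all genes at 0.05. No set test was run. The members and gene lists were chosen with earlier results of these data known. Genes named are the 10 members, the other SLRP genes, up to 4 genes per list with the smallest p, the 5 genes nearest to *Lum* and *Hmga2*. Genes beside the SLRP genes, *Pdgfra*, *Epcam*, *Esrp1*, *Cdh1*, *Sftpc* and *Myh7* were added after values were seen. Alternatives were the replicate block, median centring, the mean over probe sets of a gene, omission of the dimmest 40 percent, cyclic loess, trend and robust, leaving out each array, a threshold of 0.10 and treat at 1.2-fold. Figures used matplotlib 3.10.9 in Python 3.11.15. Lists are described by counts and medians. SEs and p values from limma rest on each gene's spread between these arrays, pooled with the spread over all genes. They are thus not a gene's own replicate spread alone. The spread between arrays may be technical where samples did not come from separate embryos.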

Additional observations from a re-analysis of the deposited data

How the results depend on the processing

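The count of called SLRP genes, 2 with all arrays, was 3 with the replicate block, with array medians aligned, after omission of the dimmest 40 percent and at a threshold of 0.10, with *Fmod* as the added gene in each. It was 2 with cyclic loess, with the mean of all probe sets and with trend and robust, and 1 (*Lum*) with treat against a 1.2-fold change. Leaving out 1 array gave 0 to 5 members, *Podn* being called without either WT array and *Prelp* without WT replicate 2. The median of the members was 0.12 with cyclic loess. It was 0.30 after omission of the dimmest 40 percent, a setting that drops *Omd* and *Kera*, and −0.08 to 0.06 when an array was left out. Over all genes, 156 calls became 602 with the replicate block, 294 with median centring, 350 with cyclic loess, 301 without the dimmest 40 percent, 457 at a threshold of 0.10, 52 with treat and 0 to 6292 when an array was left out. The share of higher calls was 16 of 156 in the main setting, 73 of 294 with median centring, 80 of 350 with cyclic loess, 241 of 602 with the replicate block and, as a majority, 3321 of 6292 without WT replicate 2. Named genes were followed in the alternatives with all arrays at 0.05 against zero, which leaves out treat and the threshold of 0.10. Of 70 named genes that were not called, 17 passed in at least 1 of these. Among them were *Fmod*, *Pcolce2*, *Dpt*, *Ibsp*, *Vcan*, *Ager* and *Myl7*. All of the 14 called genes stayed called in these alternatives, though *Dcn* was not called with treat. Of 68 named genes past 1.2-fold, 15 had a difference more than 1.5 times smaller against 1 WT array alone, among them *Prelp*, *Nyx*, *Chad*, *Ecm2*, *Col6a3*, *Chst5*, *Fn1*, *Rgs5* and *Ibsp*.

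Cyclic loess reversed the sign of *Omd* (0.14), *Kera* (0.096), *Chadl* (0.0017), *Podnl1* (0.065) and *Hmga2* (−0.0058), none of them called. Leaving out an array gave −0.11 to 0.11 for *Omd*, −0.18 to 0.074 for *Kera*, −0.18 to 0.043 for *Chadl*, −0.068 to 0.013 for *Podnl1*, −0.64 to 0.11 for *Muc16* and −0.076 to 0.18 for *Hmga2*. The cause of these changes was not tested. The same-numbered arrays of the groups deviated from their group means with a correlation of −0.238, and no source pairs them, so the replicate block (3 members called, 602 genes) is an alternative only. Crossing the numbers, chosen after seeing the data, gave 3 members and 512 genes. Dim signal limits what can be said of *Omd*, *Kera*, *Epyc*, *Optc*, *Podnl1* and *Chadl*, and of the WT level of *Lum*.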
